A study of Mus musculus with 30 samples.

Results

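The 3 BMP ligands (Bmp2, Bmp4 and Bmp7) and 7 of their known target genes (Id1, Id2, Id3, Id4, Msx1, Msx2 and Smad6) were followed through the differentiation of mouse embryonic stem cells (ESCs) towards neuromesodermal progenitors (NMPs), the bipotent cells that supply both the spinal cord and the mesoderm of the elongating body axis. The 10 genes were chosen by name, as textbook members of the pathway, from the 54134 rows of the deposited count table. Earlier results of these data were known when they were chosen. The study asked how the nuclear receptor Nr6a1 shapes this differentiation. RNAseq was performed on 30 libraries, 3 for each of 10 groups, with wildtype and Nr6a1-/- cells at each of 5 stages.

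Every group was derived from the Bruce4 ESC line in N2B27 medium and received FGF2 from the start. At d2 the cells had been in FGF2 alone for 48 h and are epiblast-like. CHIR99021, an agonist of the Wnt pathway, was present from d2 on, so that d2.5 and d3 followed 12 h and 24 h of Wnt activation. At d4 cells had spent a further 24 h in FGF2 and CHIR, while d4G cells spent the same 24 h with Gdf11 added. Nr6a1-/- cells were made by CRISPR/Cas9 with deletions in exon 4 of both alleles. The study reports that neither resulting protein has a DNA-binding domain, and takes this to support a functional null. The Nr6a1-/- cells are 1 clone, so that a genotype difference and a difference between lines cannot be told apart. The libraries were primed at the poly(A) tail, which means that counts of Nr6a1 itself do not check a deletion in an internal exon and that counts are not levels per length. Values are therefore compared between groups for the same gene and not between genes.

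BMPs are secreted ligands of the TGF-beta family. They bind type I and type II receptor kinases, which phosphorylate Smad1, Smad5 and Smad9, and these enter the nucleus with Smad4 to activate transcription. The Id genes, which encode helix-loop-helix proteins that sequester E proteins and so hold back differentiation, the homeobox genes Msx1 and Msx2, and the inhibitory Smad6, which feeds back on the receptors, are among the most widely used readouts of the pathway. In the posterior embryo BMP signalling patterns the mesoderm from paraxial to lateral, and raises dorsal at the expense of ventral fates in the neural tube. Gdf11 belongs to the same family but signals mainly through Smad2 and Smad3. FGF, Wnt and other signals can also act on Id and Msx genes, and no receptor or Smad protein activity was measured here.

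The genes lie apart in the genome except for those that share chromosome 2 or 13 (GENCODE vM21, GRCm38). Bmp4 is at chr14:46383520-46390669 and Bmp7 at chr2:172868012-172940321, both on the minus strand, and Bmp2 at chr2:133552159-133562885 on the plus strand. Id1 (chr2:152736251-152737410), Id3 (chr4:136143497-136145755) and Id4 (chr13:48261228-48266026) are on the plus strand and Id2 (chr12:25093799-25097140) on the minus strand. Msx1 (chr5:37820485-37824583), Msx2 (chr13:53466884-53473074) and Smad6 (chr9:63953076-64022059) are on the minus strand. The members that overlap another gene are Bmp4 and Id4, of which Id4 shares bases with Gm49291 on the opposite strand (3 counts over all libraries, against 168 for Id4).

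RefSeq promoter sequences (GRCm38.p6) could be matched for 7 of the 10 genes, all but Id1, Bmp2 and Bmp7. The 250 bases before the RefSeq start were searched on both strands for GGCGCC, the GC-rich element bound by Smad1 and Smad5, for CAGAC, the Smad binding element, and for CACGTG, an E-box. No gene held more than 1 of the 3 motifs, so that no match overlapped one of another motif. GGCGCC was found before Id2 and Id4 (2 of 7; 9.54% of 27025 promoters of the same length held it), CAGAC before Id3 (1 of 7, against 42.1%), and CACGTG before Bmp4 (1 of 7, against 6.05%). Such matches are a description of the letters only. For Id2, Id3 and Msx2 the RefSeq start lies inside the GENCODE gene given above, so that their windows are before the RefSeq start but within the GENCODE gene. The matches in Id2 and Id3, the 2 Id genes whose genotype difference changed most between stages, are shown in windows of 30 bases with the motif in capitals, 5' to 3' on the strand of the gene. The Id2 window lies at chr12:25096306-25096335 (minus strand), with the motif beginning 231 bases before the RefSeq start. The Id3 windows lie at chr4:136143643-136143672 and chr4:136143742-136143771 (plus strand), 167 and 68 bases before it, and the latter holds the motif on the opposite strand.
Id2: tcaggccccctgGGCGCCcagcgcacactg
Id3 (upstream match): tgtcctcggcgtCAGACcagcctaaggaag
Id3 (downstream match): ggacccttggcgGTCTGttttgaataaggg

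The whole searched stretch is shown for Msx1 and Bmp4, the target with the lowest FDR between genotypes at d4 and the ligand that was low beside it. They are the minus strand of chr5:37824586-37824835 and of chr14:46390670-46390919. Msx1 held none of the 3 motifs in this window and is in lower case throughout. The capitals in Bmp4 mark CACGTG.
Msx1: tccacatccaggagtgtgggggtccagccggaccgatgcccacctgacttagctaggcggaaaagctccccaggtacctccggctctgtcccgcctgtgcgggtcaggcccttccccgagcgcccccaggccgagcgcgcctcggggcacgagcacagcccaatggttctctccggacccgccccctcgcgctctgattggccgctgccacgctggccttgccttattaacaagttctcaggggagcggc
Bmp4: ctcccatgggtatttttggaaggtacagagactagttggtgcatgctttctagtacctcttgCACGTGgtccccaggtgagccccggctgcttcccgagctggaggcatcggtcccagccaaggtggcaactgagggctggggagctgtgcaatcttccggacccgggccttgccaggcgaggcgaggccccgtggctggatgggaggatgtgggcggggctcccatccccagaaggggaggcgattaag

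The libraries held 1570714 to 3688197 counts (median 2366002), so that 3 counts, the limit allowed by a count of 0, amounted to 0.823 to 1.9 CPM (counts scaled to library size). All 10 genes passed the filter of the tests, but Bmp4 did so only in d4G wildtype, Id4 only in d2 wildtype, and Bmp2 and Smad6 only in both d4G groups, where each was highest by its mean, so that their differences from these groups are in part fixed by the filter. Epiblast markers summed to 2330 to 3170 CPM at d2 and to 86.9 to 109 CPM in d4 Nr6a1-/- and both d4G groups. In d4 wildtype they ranged from 86.8 CPM to 645 CPM, the latter in replicate 2, and every comparison that rests on d4 wildtype was also run without that library. Replicate 1 of d4 Nr6a1-/- also stood apart, with a chi-square per gene of 5.52 and 6.61 against the other libraries of its group, which differed from each other by 2.54. Without it 4, 3 and 7 members were called at d4 between genotypes, from d3 to d4 and with Gdf11 in Nr6a1-/- cells, the same counts as with it, although between genotypes Bmp4 was lost (FDR 0.0529) and Id1 gained (FDR 0.0329). Markers of other cell types also moved with genotype. Paraxial mesoderm markers (Tbx6, Msgn1, Meox1, Tcf15, Foxc2 and Pcdh8) summed to 105 to 122 CPM in d4 wildtype and to 404 to 441 CPM in d4 Nr6a1-/- libraries, and endoderm markers to 42 to 60.2 and to 2.54 to 8.65 CPM, with Cer1 and Afp at 0 in both groups and Ttr at 0 in the latter. The endoderm markers were lower in Nr6a1-/- libraries at every other stage too. Before CHIR, at d2, they summed to 13 to 18.6 CPM in wildtype and 0.372 to 3.39 CPM in Nr6a1-/- libraries. The part of these markers in the differences described here was not tested. In bulk RNA, fewer cells that express a gene and less of its RNA per cell cannot be told apart.

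**Figure D1:**
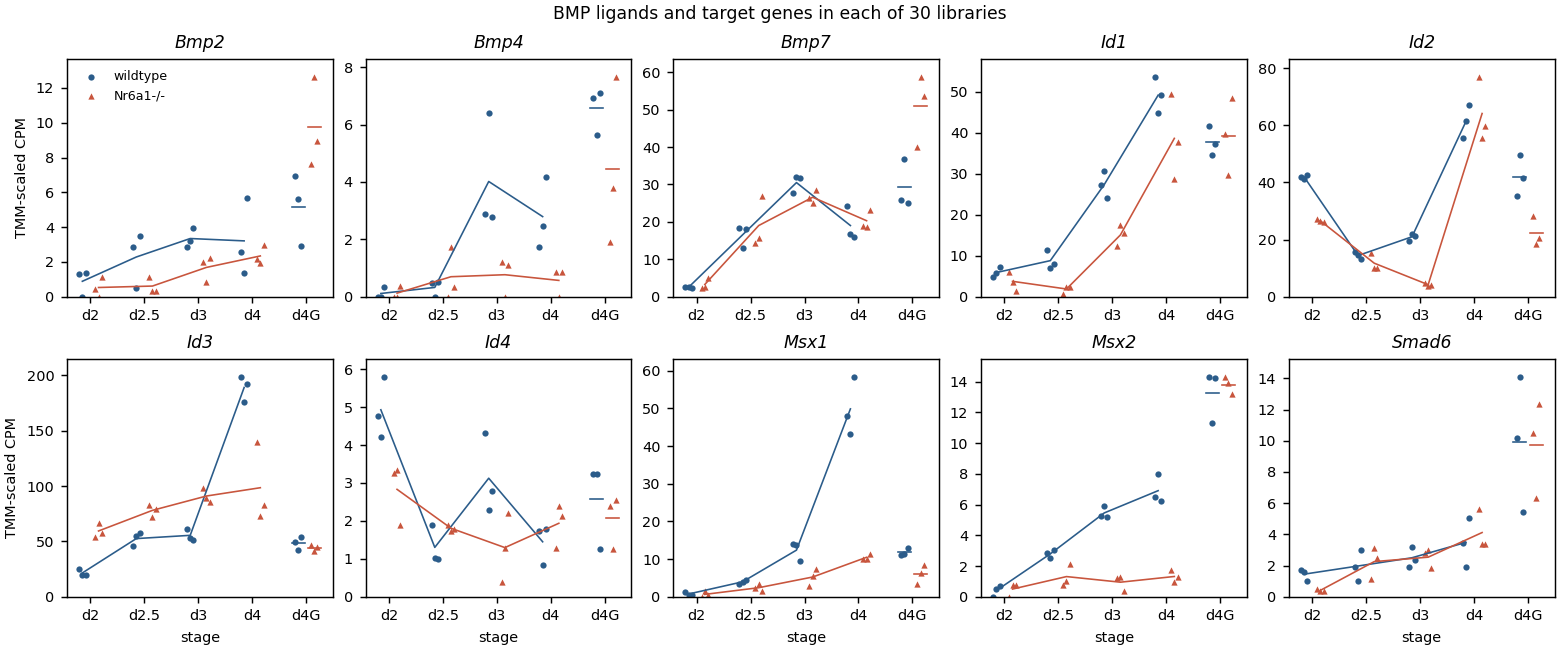
Each panel plots 1 gene, with TMM-scaled CPM on a linear vertical axis that starts at 0 and the 5 stages along the horizontal axis. Points are the 3 libraries of a group (circles, wildtype; triangles, Nr6a1-/-), lines join the group means from d2 to d4, and short bars give the means at d4G. At d4 Msx1 and Msx2 were higher in every wildtype library than in any Nr6a1-/- library, while the Id3 lines cross between d3 and d4.

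The wildtype course was taken first. Between d2 and d2.5, 6 of the 10 genes changed (4 rose and 2 fell; edgeR, FDR below 0.05), against 25.4% of all genes tested. Between d2.5 and d3, 4 rose (11.5% of all genes), and between d3 and d4, 4 rose and 1 fell (21.1%). The median log2 fold change over the 10 genes was 1.09, 0.92 and 0.40 in these steps, whereas the median over all genes was 0.01 or less each time.

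Among the ligands, Bmp7, a broadly acting BMP that signals in mesoderm and ectoderm, was the first to appear. Its levels in the 3 wildtype libraries were 2.6, 2.63 and 2.39 CPM at d2 and 18.4, 13.1 and 18.1 CPM at d2.5, and the groups did not overlap. The log2 fold change was 2.69 (SE 0.35, FDR 2.73e-07). Bmp7 rose again to 27.8, 32 and 31.8 CPM at d3 (log2 fold change 0.88, FDR 0.00599) and then fell to 24.3, 16.7 and 16.1 CPM at d4 (-0.72, FDR 0.00908). The rise to d3 was lost when all libraries were thinned to the same depth (FDR 0.0879), and the fall to d4 without d4 wildtype replicate 3 (FDR 0.0608).

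Bmp4, the ligand that induces and ventralises mesoderm in the gastrula, was scarce. Wildtype libraries held 0, 0 and 1 counts at d2, 1, 0 and 1 at d2.5, and 6, 14 and 7 at d3. The pooled counts, 27 against 2, gave a rise of 12.1-fold from d2.5 to d3 with an exact 95% counting interval of 3.04 to 105 (edgeR FDR 0.00764). This rise leaned on d3 wildtype replicate 2, without which the FDR was 0.0616. An antisense transcript, Gm15222, overlaps Bmp4 by 1764 bases and drew 38 counts over the 30 libraries against 148 for Bmp4, and whether strand was used in counting is not given in the sources used here. Bmp2, a close relative of Bmp4, stayed between 0 and 19 counts per wildtype library up to d4 and passed no test between stages.

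The targets did not follow a single course. Id3 went from 25.1, 19.5 and 19.8 CPM at d2 to 45.4, 55 and 57.2 CPM at d2.5 (log2 fold change 1.29, FDR 2.67e-06) and, after 61.3, 53.4 and 51.6 CPM at d3 (0.08, FDR 0.826), reached 199, 176 and 192 CPM at d4 (1.77, FDR 9.04e-12). No d4 library came near any earlier one. Id1 rose later, from 11.3, 7.06 and 8.03 CPM at d2.5 to 27.3, 30.6 and 24.2 CPM at d3 (1.62, FDR 2.94e-05) and to 53.7, 44.7 and 49.2 CPM at d4 (0.84, FDR 0.00107).

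Id2 moved the other way at first. It fell from 42.1, 41.1 and 42.7 CPM at d2 to 15.6, 14.6 and 13.1 CPM at d2.5 (log2 fold change -1.54, FDR 2.6e-08), before rising from 19.6, 21.9 and 21.4 CPM at d3 to 55.5, 61.5 and 67.1 CPM at d4 (1.55, FDR 8.41e-10). Id4, best known from the developing nervous system, fell from 11, 8 and 17 counts at d2 to 4, 2 and 2 at d2.5 (-1.89, FDR 0.0029). Since Id4 passed the filter only through d2 wildtype, its fall from that group is in part fixed by the filter.

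The Msx genes, homeobox regulators of the dorsal neural tube and of limb and lateral mesoderm, rose from almost nothing. Msx1 counts were 3, 1 and 1 at d2 and 7, 8 and 9 at d2.5 (log2 fold change 2.41, FDR 0.0043), and Msx1 went on to 13.9, 13.7 and 9.53 CPM at d3 (1.62, FDR 0.00137) and 48.1, 43.1 and 58.4 CPM at d4 (2.02, FDR 5.52e-09). Each stage stood above the one before it in all 3 libraries, although the step to d3 was lost at the thinned depth (FDR 0.0761). Msx2 rose from 0, 1 and 2 counts at d2 to 6, 5 and 6 at d2.5 (2.59, FDR 0.00258), and its later steps to d4 did not pass. Smad6 was at 2 to 17 counts per wildtype library up to d4 and passed no test between stages. Leaving out d4 wildtype replicate 2 changed none of the wildtype calls from d3 to d4.

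In Nr6a1-/- cells, 4 of the 10 genes changed from d2 to d2.5 (24.1% of all genes), 2 from d2.5 to d3 (15.9%) and 3 from d3 to d4 (25.9%). Bmp7 rose as in wildtype, from 2.33, 2.6 and 4.89 CPM to 14.5, 15.6 and 27 CPM in the 12 h after CHIR (5.65-fold, FDR 5.9e-08). Id2 fell in both early steps, to 15.2, 10.1 and 9.94 CPM at d2.5 (-1.18, FDR 6.38e-06) and to 4.79, 3.82 and 4.06 CPM at d3 (-1.46, FDR 1.07e-04), and then rose to 77, 55.8 and 59.7 CPM at d4 (3.91, FDR 2.9e-17).

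Id1 in Nr6a1-/- cells rose from 0.761, 2.43 and 2.48 CPM at d2.5 to 12.4, 17.4 and 15.5 CPM at d3 (2.94, FDR 1.27e-07) and to 49.5, 28.8 and 37.7 CPM at d4 (1.36, FDR 6.14e-06). The remaining calls in this line were less firm. Msx1 rose from d2 to d2.5 (5 against 20 pooled counts, FDR 0.0487, with overlapping groups), a call lost under 8 of 12 alternatives, among them leaving out d2 Nr6a1-/- replicate 1 or 3 or d2.5 Nr6a1-/- replicate 1 or 2. It rose again from d3 to d4 (0.98, FDR 0.0214), which did not pass when replicate 1 of d3 (FDR 0.155) or replicate 3 of d4 (FDR 0.0757) was left out. Smad6 rose from 3 to 19 pooled counts between d2 and d2.5 (FDR 0.0172), lost at the thinned depth (FDR 0.21) and without d2 Nr6a1-/- replicate 2 or 3 or d2.5 Nr6a1-/- replicate 2 (FDR 0.0566 to 0.0819).

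The genotypes were next compared at each stage. Nr6a1-/- cells had lower Id2 and higher Id3 at d2, lower Id1 and higher Id3 at d2.5, and at d3 lower Bmp4, Id1, Id2, Msx1 and Msx2 with Id3 still higher. At d4, Bmp4, Id3, Msx1 and Msx2 were lower. With Gdf11, Id2 was lower and Bmp7 higher, neither of which was called at d4. The counts of genes called were therefore 2, 2, 6, 4 and 2 of 10 at d2, d2.5, d3, d4 and d4G, against 4.07%, 6.45%, 10.8%, 18.9% and 7.9% of all genes tested. The median log2 fold change over the 10 genes was lowest at d3 (-1.08) and close to 0 at d2.5 (-0.05) and d4G (-0.06), beside medians over all genes between -0.01 and 0.02.

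**Figure D2:**
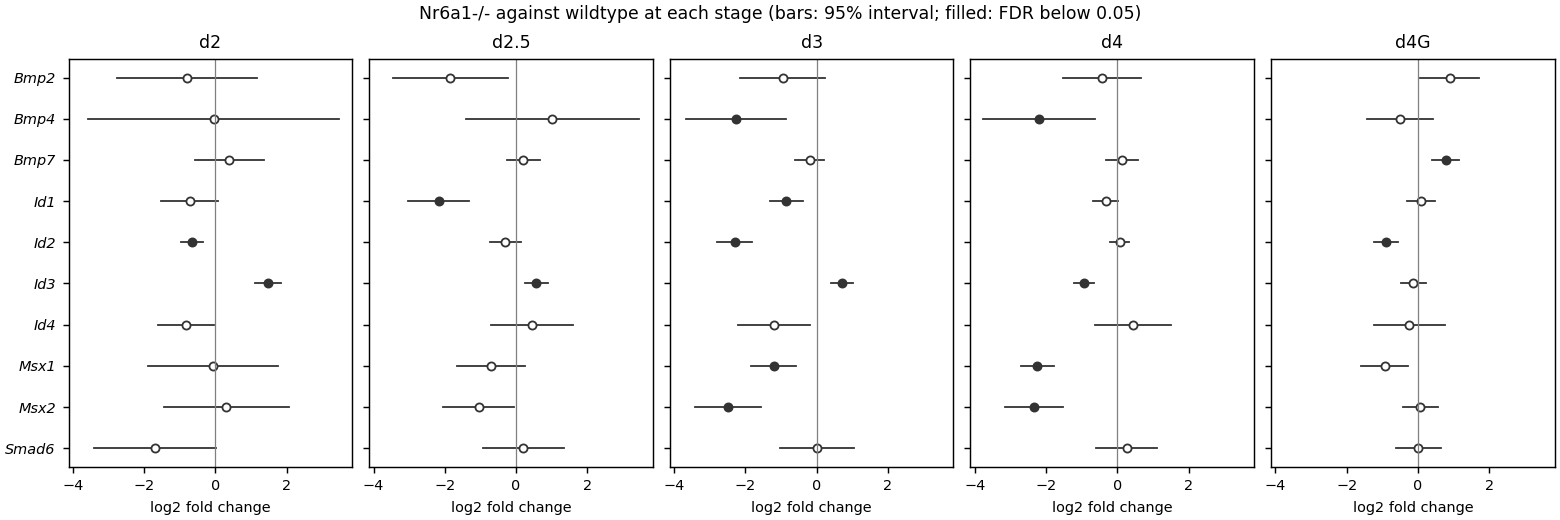
Log2 fold change of Nr6a1-/- over wildtype (horizontal axis) for the 10 genes at 5 stages, with 95% intervals from the edgeR fit. Filled points passed an FDR of 0.05: at d3, 5 of the 10 genes lie to the left of 0 and Id3 lies to the right, and at d4 Id3 has moved to the left with Bmp4, Msx1 and Msx2.

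Id3 was the gene whose difference turned round. At d2 it was at 53.7, 66.9 and 57.6 CPM in Nr6a1-/- and 25.1, 19.5 and 19.8 CPM in wildtype libraries, without overlap (log2 fold change 1.47, SE 0.18, FDR 7.41e-07). At d3 the values were 98.5, 89.1 and 85.3 CPM against 61.3, 53.4 and 51.6 CPM, again all higher in Nr6a1-/- libraries (0.72, SE 0.15, FDR 0.00142). At d2 the epiblast markers also differed, at 2330 to 2380 summed CPM in wildtype and 3080 to 3170 CPM in Nr6a1-/- libraries. None of these 6 genes was called alone. ESCs were kept on fibroblast feeder cells, which the study reports were depleted before differentiation. Markers of fibroblasts summed to 20 to 28.2 CPM in d2 wildtype and 46.7 to 52.3 CPM in d2 Nr6a1-/- libraries. Of the 5 tested, 1 was called at d2, higher. The summed fibroblast markers were higher in Nr6a1-/- libraries at d2.5 and d3 too. At d3 the wildtype sums were 61.9 to 66.1 CPM, and 1 gene was called higher and 1 lower. Whether these counts come from feeder cells was not tested. At d4 the sums were lower, at 33 to 35.3 against 36.2 to 41.4 CPM. At d4G, where Id3 was not called, they were higher, at 43.5 to 51.9 against 32.8 to 41.4 CPM, although the 1 gene called was lower. The part of either list in the Id3 difference was not tested.

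By d4 the order was the opposite. Nr6a1-/- libraries held 139, 73 and 83 CPM of Id3 and wildtype libraries 199, 176 and 192 CPM, every Nr6a1-/- library below every wildtype one (-0.93, SE 0.14, FDR 2.25e-06; FDR 4.4e-06 without d4 wildtype replicate 2). With Gdf11 the ranges overlapped, at 46.8, 41.1 and 45.1 CPM against 49.4, 42.3 and 54.4 CPM, and the log2 fold change was -0.13 (95% interval -0.48 to 0.22, FDR 0.771). The smaller excess at d2.5 (83, 71.9 and 79.2 against 45.4, 55 and 57.2 CPM; 0.57, FDR 0.0209) was lost without d2.5 Nr6a1-/- replicate 1 (FDR 0.0942) or 3 (FDR 0.0666) or d2.5 wildtype replicate 1 (FDR 0.144).

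Id2 differed most at d3. It was at 4.79, 3.82 and 4.06 CPM in Nr6a1-/- and 19.6, 21.9 and 21.4 CPM in wildtype libraries, a 4.93-fold lower level with no overlap (log2 fold change -2.30, SE 0.24, FDR 1.24e-08). At d2 it was already lower, at 27.1, 26.4 and 26.3 against 42.1, 41.1 and 42.7 CPM (-0.66, FDR 0.0079, not called at the thinned depth, FDR 0.117). By d4 the difference was gone from the test. Nr6a1-/- libraries held 77, 55.8 and 59.7 CPM and wildtype libraries 55.5, 61.5 and 67.1 CPM, overlapping ranges with a log2 fold change of 0.06 (95% interval -0.20 to 0.33). At d4G Id2 was lower in Nr6a1-/- cells, at 28.2, 18.3 and 20.4 against 35.1, 49.6 and 41.4 CPM (-0.91, SE 0.17, FDR 1.87e-04).

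Id1 was lower in Nr6a1-/- cells at d2.5 and d3. At d2.5 it was at 0.761, 2.43 and 2.48 CPM (2, 7 and 7 counts), and at 11.3, 7.06 and 8.03 CPM in wildtype, 4.52-fold lower without overlap (log2 fold change -2.18, SE 0.42, FDR 7.76e-04). At d3 the values were 12.4, 17.4 and 15.5 against 27.3, 30.6 and 24.2 CPM (-0.86, FDR 0.00998). It was no longer called at the thinned depth (FDR 0.0886), and leaving out replicate 1 of d3 Nr6a1-/- or replicate 2 of d3 wildtype gave FDR of 0.0631 and 0.0519. At d4 the log2 fold change was -0.33 (95% interval -0.69 to 0.03) and at d4G 0.08 (-0.30 to 0.47), neither of which passed. Without d4 Nr6a1-/- replicate 1, whose 49.5 CPM lies among the wildtype values, the d4 difference was called (-0.56, FDR 0.0329). Id4 passed at no stage. It held 1, 3 and 6 counts in d3 Nr6a1-/- and 9, 5 and 7 counts in d3 wildtype libraries, with a log2 fold change of -1.20 (95% interval -2.21 to -0.19, FDR 0.127).

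Of the 7 targets, Msx1 and Msx2 had the lowest fitted log2 fold changes at d4. Msx1 was at 9.9, 10.1 and 11.4 CPM in Nr6a1-/- and 48.1, 43.1 and 58.4 CPM in wildtype libraries, a 4.74-fold lower level and far from overlapping (log2 fold change -2.24, SE 0.22, FDR 7.1e-10). Without d4 wildtype replicate 2 the log2 fold change was -2.36 (FDR 1.48e-09). At d3 it was at 2.79, 5.52 and 7.38 against 13.9, 13.7 and 9.53 CPM (-1.21, FDR 0.00834), which was lost without d3 Nr6a1-/- replicate 1 (-0.92, FDR 0.0791).

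Msx2 had 3, 3 and 1 counts in d3 Nr6a1-/- and 11, 13 and 13 counts in d3 wildtype libraries, so that the pooled counts were 5.89-fold lower with a counting interval of 2.59 to 15.7 (log2 fold change -2.49, FDR 2.12e-04). At d4 it had 4, 2 and 3 counts against 15, 29 and 21, which is 5.25-fold lower (2.6 to 12; -2.34, FDR 3e-05, and -2.23 with FDR 3.62e-04 without d4 wildtype replicate 2). In neither stage did any Nr6a1-/- library reach a wildtype one. With Gdf11 the Msx2 values were 14.3, 13.9 and 13.2 CPM in Nr6a1-/- and 14.3, 11.3 and 14.2 CPM in wildtype libraries (0.06, 95% interval -0.43 to 0.55). Msx1 at d4G was at 3.35, 6.32 and 8.52 against 11.1, 11.3 and 13 CPM, which did not overlap but missed the threshold (-0.94, FDR 0.067), and was called only without d4G Nr6a1-/- replicate 3 (-1.34, FDR 0.0304).

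Smad6 passed the test at no stage. At d2 it had 1 count in each Nr6a1-/- library and 4, 3 and 3 counts in the wildtype libraries, ranges that did not overlap (log2 fold change -1.69, FDR 0.318). At d2.5 the log2 fold change was 0.20 (95% interval -0.92 to 1.33). It was 0.01 at d3 (95% interval -1.04 to 1.06), 0.26 at d4 (-0.59 to 1.11) and 0.01 at d4G (-0.63 to 0.65). So at d4 Id3, Msx1 and Msx2 were called lower in Nr6a1-/- cells, and Id1, Id2, Id4 and Smad6 were not called. A gene not called is not shown to be unchanged. Id1 was called lower without d4 Nr6a1-/- replicate 1 (FDR 0.0329). Id4 (13 against 13 pooled counts) and Smad6 (28 against 32) rest on few counts.

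Of the ligands, Bmp4 was lower in Nr6a1-/- cells at d3, with 3, 0 and 3 counts against 6, 14 and 7, and at d4, with 2, 0 and 2 counts against 4, 9 and 14. The pooled counts were 5.01-fold lower at d3 (counting interval 2.03 to 14.9, FDR 0.0286) and 4.91-fold lower at d4 (1.71 to 19.3, FDR 0.042), without overlap at either stage. Both calls rest on few counts. At d3 the FDR was 0.132 when replicate 2 of Nr6a1-/- was left out and 0.183 when replicate 2 of wildtype was. The d4 call was lost under 7 of 12 alternatives, namely DESeq2, the thinned depth, and leaving out d4 wildtype replicate 2 (FDR 0.0525) or 3 or any of the 3 d4 Nr6a1-/- libraries.

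Bmp7 did not pass from d2 to d4, with log2 fold changes of -0.20 at d3 (95% interval -0.60 to 0.20) and 0.13 at d4 (-0.31 to 0.57). With Gdf11 it was higher in Nr6a1-/- cells, at 40.1, 58.8 and 53.7 CPM against 25.9, 36.7 and 25.1 CPM, every library above every wildtype one (0.78, SE 0.19, FDR 0.0045). Bmp2 passed at no stage. It had 3, 1 and 1 counts in Nr6a1-/- and 6, 1 and 7 counts in wildtype libraries at d2.5 (pooled counts 3.83-fold lower, counting interval 1.3 to 13.6, FDR 0.178), and at d3 5, 2 and 6 against 6, 7 and 10 counts, with CPM ranges that did not overlap (log2 fold change -0.96, FDR 0.342). At d4G it was at 7.64, 12.7 and 8.95 against 6.93, 5.64 and 2.93 CPM and missed the threshold (0.89, FDR 0.215). Markers of several cell types differed at the same stages. At d3, dorsal neural tube and neural crest markers summed to 6.71 to 7.15 CPM in wildtype and 2.55 to 3.59 CPM in Nr6a1-/- libraries. Pax7 and Sox10 were at 0 in the latter. NMP markers summed to 678 to 721 CPM in d3 wildtype and 921 to 1050 CPM in d3 Nr6a1-/- libraries, with 3 called higher and 2 lower. Dorsal neural tube and neural crest markers, a domain where Msx genes are expressed, summed to 12.4 to 19.9 CPM in d4 wildtype and 5.08 to 7.21 CPM in d4 Nr6a1-/- libraries, lateral and extraembryonic mesoderm markers to 7.8 to 17.9 and 2.88 to 5.6 CPM with Hand2 at 0 in the former, and surface ectoderm markers to 197 to 287 and 107 to 124 CPM with Trp63 at 0 in both. In the last list Krt8 and Krt18 were lower at d4 in Nr6a1-/- cells, while Grhl3 was higher (0.90, FDR 0.0265). Of the dorsal neural tube list 3 genes had enough counts to be tested, and 1 was called at d4, lower in Nr6a1-/- cells. Neural markers summed to 56 to 81.5 CPM in d4 wildtype and 35.7 to 50.8 CPM in d4 Nr6a1-/- libraries. Of 5 tested, 3 were called, all lower, and Olig2 was at 0 in the latter group. Their part in the lower Msx1, Msx2 and Bmp4 was not tested.

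Genes of the list rose and fell with Gdf11. The d4 and d4G cells spent the same 24 h after d3 in parallel. In these comparisons rose and fell mean d4G against d4, not a change in time. Wildtype means at d3 and d4G were 30.5 and 29.2 CPM for Bmp7, 5.46 and 13.3 for Msx2 and 2.5 and 9.9 for Smad6. They were 21 and 42 CPM for Id2, 55.5 and 48.7 for Id3 and 12.4 and 11.8 for Msx1. In Nr6a1-/- cells they were 4.22 and 22.3 CPM for Id2 and 91 and 44.4 for Id3. The step from d3 to d4G was not tested. In wildtype cells, d4G against d4, 3 genes rose (Bmp7, Msx2 and Smad6) and 3 fell (Id2, Id3 and Msx1), against 28.8% of all genes called. In Nr6a1-/- cells 5 rose (Bmp2, Bmp4, Bmp7, Msx2 and Smad6) and 2 fell (Id2 and Id3), against 18% of all genes. Bmp2 and Smad6 passed the filter only through the d4G groups and Bmp4 only through d4G wildtype, so that their rises are in part fixed by the filter and these counts are a description. The 2 Gdf11 comparisons use separate libraries. Lateral and extraembryonic mesoderm markers were also higher with Gdf11, at 26.8 to 62.3 against 7.8 to 17.9 summed CPM in wildtype and 21.7 to 57.8 against 2.88 to 5.6 CPM in Nr6a1-/- libraries, almost all of it Foxf1, which went from 0.856 to 35.3 CPM in Nr6a1-/- cells. Hand2 was at 0 in both d4G groups and in d4 wildtype, and Kdr and Isl1 at 0 in d4G Nr6a1-/-, where the d4 libraries together held 1, 4 and 1 counts of these genes. Neural and paraxial mesoderm sums were lower with Gdf11. Neural markers summed to 23.8 to 36 against 56 to 81.5 CPM in wildtype and 6.96 to 11.5 against 35.7 to 50.8 CPM in Nr6a1-/- libraries. Paraxial mesoderm markers summed to 78.5 to 93.9 against 105 to 122 CPM and to 160 to 180 against 404 to 441 CPM. In Nr6a1-/- cells 3 paraxial genes were called lower and 1 higher. The part of these lists in the rises and falls was not tested.

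Of the ligands, Bmp7 rose from 18.9, 18.7 and 23.3 CPM in d4 Nr6a1-/- to 40.1, 58.8 and 53.7 CPM in d4G Nr6a1-/- libraries (log2 fold change 1.31, SE 0.20, FDR 4.43e-06). In wildtype it went from 24.3, 16.7 and 16.1 to 25.9, 36.7 and 25.1 CPM (0.66, FDR 0.0128), a rise lost without d4 wildtype replicate 2 (FDR 0.0654) or 3 (FDR 0.0689) or d4G wildtype replicate 2 (FDR 0.133). Bmp2 in Nr6a1-/- cells rose from 5, 4 and 7 to 16, 20 and 21 counts, 4-fold with a counting interval of 2.27 to 7.47 (FDR 0.00229). In wildtype it went from 6, 5 and 19 to 15, 14 and 7 counts and did not pass (0.66, FDR 0.296), but was called without d4 wildtype replicate 3 (FDR 0.0472). Bmp4 in Nr6a1-/- cells rose from 2, 0 and 2 to 4, 6 and 18 counts, 7.87-fold (2.75 to 30.9, FDR 0.00534), which was lost without d4G Nr6a1-/- replicate 3 (FDR 0.107). In wildtype it went from 4, 9 and 14 to 15, 14 and 17 counts, 2.25-fold (1.37 to 3.77), at an FDR of 0.0529 that fell below 0.05 in 4 of 13 alternatives.

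**Figure D3:**
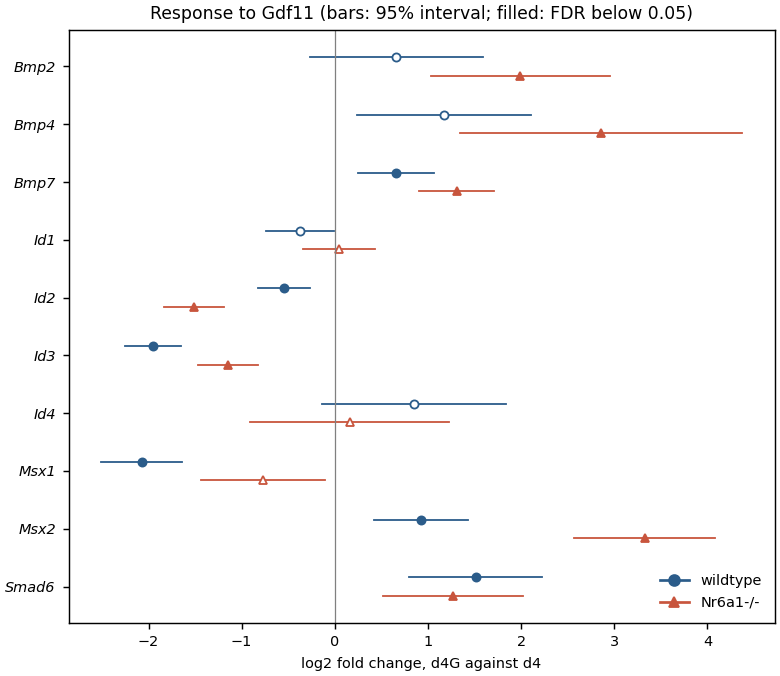
Log2 fold change of d4G over d4 (horizontal axis) in wildtype (circles) and Nr6a1-/- (triangles) cells with 95% intervals from the edgeR fit, filled where the FDR was below 0.05. The 3 ligands, Msx2 and Smad6 lie to the right of 0 in both genotypes and Id2, Id3 and Msx1 to the left, with the widest gap between genotypes at Msx2.

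Among the targets, Id3 fell from 199, 176 and 192 to 49.4, 42.3 and 54.4 CPM in wildtype cells (log2 fold change -1.95, SE 0.15, FDR 6.84e-13) and from 139, 73 and 83 to 46.8, 41.1 and 45.1 CPM in Nr6a1-/- cells (-1.15, SE 0.16, FDR 1.1e-06). The d4G ranges of the genotypes overlapped, whereas the d4 ranges did not. Id2 fell from 55.5, 61.5 and 67.1 to 35.1, 49.6 and 41.4 CPM in wildtype (-0.54, FDR 0.00243; FDR 0.0577 at the thinned depth) and from 77, 55.8 and 59.7 to 28.2, 18.3 and 20.4 CPM in Nr6a1-/- cells (-1.51, FDR 2.13e-09). Id1 did not pass in either genotype, with log2 fold changes of -0.37 (95% interval -0.74 to -0.01, FDR 0.115) and 0.04 (-0.35 to 0.43).

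Msx1 and Msx2 went opposite ways. In wildtype cells Msx1 fell from 48.1, 43.1 and 58.4 to 11.1, 11.3 and 13 CPM, 4.21-fold (log2 fold change -2.08, SE 0.22, FDR 2.23e-09), while Msx2 rose from 6.5, 7.96 and 6.26 to 14.3, 11.3 and 14.2 CPM (0.92, FDR 0.0049; FDR 0.075 at the thinned depth). In Nr6a1-/- cells Msx2 rose from 4, 2 and 3 to 30, 22 and 31 counts, 10.4-fold with a counting interval of 5.2 to 23.5 (FDR 9.22e-09), and Msx1 went from 9.9, 10.1 and 11.4 to 3.35, 6.32 and 8.52 CPM without passing (-0.77, FDR 0.103; FDR 0.047 without d4G Nr6a1-/- replicate 3). None of the d4 and d4G values of Msx2 overlapped in either genotype. Smad6 rose from 8, 7 and 17 to 22, 35 and 13 counts in wildtype (1.51, FDR 0.00116; FDR 0.0669 at the thinned depth) and from 13, 7 and 8 to 22, 10 and 29 counts in Nr6a1-/- cells (1.27, FDR 0.0136). The Nr6a1-/- call was lost at the thinned depth (FDR 0.127) and without d4 Nr6a1-/- replicate 3 (FDR 0.0555) or d4G Nr6a1-/- replicate 3 (FDR 0.0906). Apart from Bmp7, no wildtype Gdf11 call was lost without d4 wildtype replicate 2.

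Whether the genotypes differ in how they changed was tested by the interaction itself. In the step from d2 to d2.5 none of the 10 genes passed in edgeR (0.609% of all genes did), where 2 (Id1 and Id3) had an unadjusted p under 0.05 and DESeq2 called 1, Id3. From d2.5 to d3, Id2 passed (1 of 10, against 0.815%): it fell in Nr6a1-/- cells while the wildtype log2 fold change was 0.54 (FDR 0.0754), a difference of -1.996 on the log2 scale (SE 0.33, FDR 6.56e-04). From d3 to d4, Id2 and Id3 passed (2 of 10, against 5.72%) in opposite directions. Id2 rose more in Nr6a1-/- cells (2.36, SE 0.28, FDR 3.26e-07), from 4.22 to 64.2 CPM on average against 21 to 61.3 CPM in wildtype, and Id3 changed less (-1.65, SE 0.21, FDR 8.03e-07), from 91 to 98.5 CPM against 55.5 to 189 CPM.

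For the response to Gdf11, 3 genes passed (against 2.66%). The number of genes called among all genes moved with single libraries. Without d4 Nr6a1-/- replicate 1 it went from 323 of 12149 to 823 of 12131 for this interaction and from 695 to 1157 for d3 to d4, and without d2.5 wildtype replicate 3 from 74 to 209 and from 99 to 264 in the earlier steps, while the number of members called in each was the same. Msx2 rose more in Nr6a1-/- cells (log2 difference 2.40, SE 0.48, FDR 0.00175; 2.28 with FDR 0.00787 without d4 wildtype replicate 2, and FDR 0.0566 at the thinned depth). Id2 fell more (-0.97, SE 0.21, FDR 0.00529). Id3 fell less (0.81, FDR 0.0365), a call lost under 9 of 19 alternatives, 8 of which leave out 1 library. The ligands did not pass, with log2 differences of 1.33 for Bmp2 (95% interval -0.04 to 2.70), 1.69 for Bmp4 (-0.18 to 3.57) and 0.65 for Bmp7 (0.07 to 1.23, FDR 0.258).

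Ligands and targets were then set against each other over the 10 group means, on the log2(CPM + 1) scale. These are descriptions, since the 10 points share stages, a line or a clone, and for Bmp2 and Bmp4 rest on few counts. Msx2 followed Bmp4 (Pearson's r = 0.94, Spearman's rho = 0.86) and Bmp2 (0.92 and 0.92), and Smad6 had an r of 0.88 with Bmp2 and 0.80 with Bmp4, values that fell to 0.72 and 0.53 without the d4G groups, through which alone Bmp2 and Smad6 passed the filter. Id1 followed Bmp2 (0.84 and 0.84). Id3, by contrast, had an r of 0.02 with Bmp2 and 0.11 with Bmp4, and Id2 0.21 and 0.20. Without the d4G groups, in which the ligands and Msx2 were high while Id3 was low, the r of Id3 was 0.44 and 0.49 over 8 groups and that of Bmp4 with Msx2 was 0.87. Over those 8 groups Bmp7 had an r of 0.62 with Id3, above its 0.53 with Id1, so that without the d4G groups Id3 did not stand apart from Id1 in its r with Bmp7. Over all 10 groups Bmp7 had r of 0.73 with Msx2 (rho 0.76) and 0.78 with Smad6 (rho 0.81). Its r of -0.22 with Id2 and -0.56 with Id4 were close to 0 by rank (rho -0.05 and -0.07), and Id4 held 1 to 17 counts per library.

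**Figure D4:**
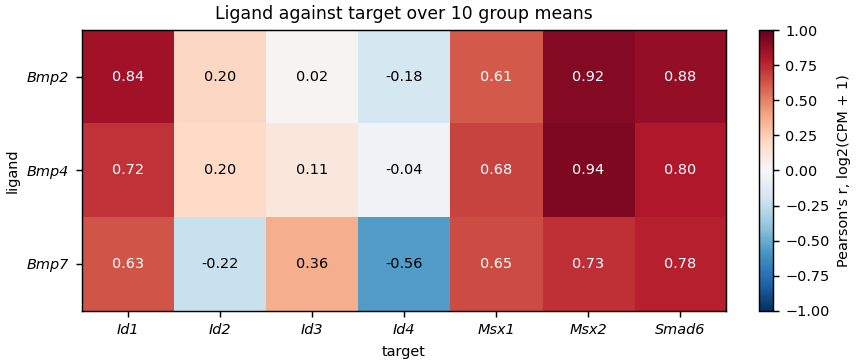
Pearson's r of each ligand (rows) with each target (columns) over 10 group means of log2(CPM + 1), from -1 (blue) to 1 (red). The columns of Id1, Msx1, Msx2 and Smad6 are at 0.61 or above for all 3 ligands, and those of Id2, Id3 and Id4 at 0.36 or below.

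The order of the levels across groups differed between targets. Msx2 was highest in d4G Nr6a1-/- and d4G wildtype (13.8 and 13.3 CPM), which did not differ beyond their spread, followed by d4 and d3 wildtype (6.91 and 5.46 CPM). Id3 was highest in d4 wildtype (189 CPM), followed by d4 and d3 Nr6a1-/- (98.5 and 91 CPM), whose ranges overlapped, and the means of both d4G groups (48.7 and 44.4 CPM) stood below all but that of d2 wildtype (21.5 CPM). Bmp4 was highest in d4G wildtype, d4G Nr6a1-/- and d3 wildtype (6.56, 4.46 and 4.02 CPM), all with overlapping ranges.

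The wider pathway was read from a list of 50 further genes, 21 of which had enough counts to be tested. Among those that were not are the antagonists Nog, Chrd and Grem1 and the receptor Bmpr1b. Between genotypes, 1 of the 21 was called at d2, 4 at d2.5 (3 higher in Nr6a1-/- cells), 4 at d3 (1 higher), 8 at d4 (5 higher) and 2 at d4G (1 higher), to be read against the same percentages of all genes as above. Without d4 wildtype replicate 2, 7 were called at d4, against 15.1% of all genes. The single gene at d2, Gata4, a regulator of cardiac and endodermal genes, was below the level required for naming and is given because it stands alone (0.50 against 3.01 CPM, log2 fold change -2.36, FDR 0.0329, not called by DESeq2).

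Fst encodes follistatin, which binds activins, Gdf11 and some BMPs. In wildtype cells it rose from 8.38 CPM at d2 to 190 CPM at d2.5 and fell from 178 CPM at d3 to 7.28 CPM at d4 (FDR 1.23e-23 and 7.25e-24). It was higher in Nr6a1-/- cells at d2.5 (304 to 315 against 180 to 204 CPM, log2 fold change 0.70, FDR 4.13e-06), at d3 (364 to 417 against 170 to 189 CPM, 1.12, FDR 7.89e-11) and most of all at d4 (53.4 to 74.1 against 5.2 to 9.24 CPM, 3.05, FDR 2e-17). No library of one genotype fell in the range of the other at these stages. With Gdf11 it rose in wildtype (2.48, FDR 2.03e-14) and fell in Nr6a1-/- cells (-0.92, FDR 1.56e-06), and the 2 responses differed (-3.40, FDR 8.08e-14).

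Tbx3, a T-box factor and BMP target of limb and heart, was lower in Nr6a1-/- cells at d3 (10.4 to 12.6 against 30.7 to 42.9 CPM, log2 fold change -1.70, FDR 1.14e-06) and d4 (8.17 to 15.2 against 26.1 to 35.5 CPM, -1.49, FDR 8.34e-06). With Gdf11 it was higher (132 to 167 against 73.8 to 103 CPM, 0.84, FDR 1.11e-04). It rose with Gdf11 in both genotypes, by 1.51 in wildtype and 3.84 in Nr6a1-/- cells on the log2 scale, and the difference of 2.33 passed (FDR 7.15e-07). This is the course of Msx2, low at d3 and d4 in Nr6a1-/- cells and raised by Gdf11 to the wildtype level or beyond.

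Among the Smads, Smad7, an inhibitory Smad that acts on both branches of the family, rose with Gdf11 from 9.89 to 29.5 CPM in wildtype (FDR 9.2e-07) and from 2.23 to 32.9 CPM in Nr6a1-/- cells (log2 fold change 3.84, FDR 7.71e-12), with a log2 difference of 2.24 (FDR 0.00135). Smad1, a signal-transducing Smad, was lower in Nr6a1-/- cells at d2.5 (23.8 against 35.8 CPM, -0.60, FDR 0.0335), and Smad5, which acts alongside it, was higher at d4 (54.9 against 38.3 CPM, 0.52, FDR 0.0047). Of the receptors, Acvr2b, which binds Gdf11 and activins as well as BMPs, was higher at d2.5 (263 against 145 CPM, 0.85, FDR 4.99e-05). Of the E proteins, the partners that Id proteins sequester, Tcf4 was higher at d2.5 (0.37, FDR 0.0135) and d4 (0.42, FDR 7.04e-04), and Tcf12 lower at d3 (-0.54, FDR 6.33e-04). Tcf3, outside the rule for naming and chosen after its values were seen, was higher at d4 (0.38, FDR 0.00997), a call lost without d4 wildtype replicate 2 (FDR 0.0577).

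With Gdf11, 12 of the 21 genes rose in wildtype cells, against 28.8% of all genes called in both directions, and in Nr6a1-/- cells 10 rose and 1, Fst, fell, against 18%. The 21 genes passed the filter in any group, d4G included. Their rises and medians may therefore be in part fixed by the filter, and these counts are a description. DESeq2 called 11 and 8 of the 21. The median log2 fold change was 0.67 and 0.34, beside 0.02 and -0.02 over all genes. Hey1, a helix-loop-helix repressor downstream of BMP and Notch signals, rose from 12.3 to 31.4 CPM in wildtype (1.35, FDR 3.12e-05) and from 11 to 44.3 CPM in Nr6a1-/- cells (2.02, FDR 6.74e-08). Leaving out d4 wildtype replicate 2 left 12 called in wildtype, and left the Fst, Smad7 and Tbx3 interactions past the threshold (FDR 2.11e-12, 7.77e-04 and 5.96e-07).

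**Figure D5:**
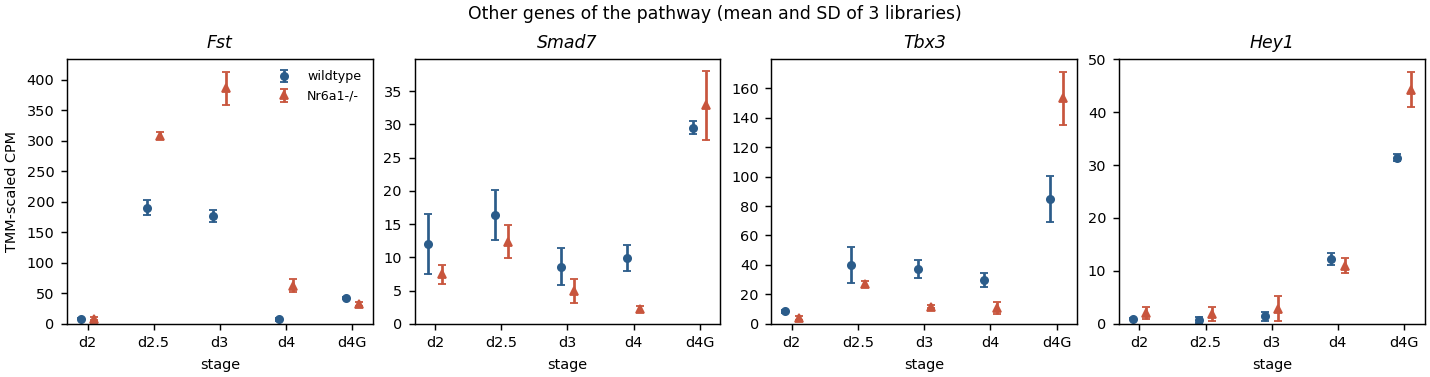
TMM-scaled CPM (linear axis from 0) of follistatin (Fst), Smad7, Tbx3 and Hey1 at the 5 stages, as mean and SD of 3 libraries (circles, wildtype; triangles, Nr6a1-/-). Fst is higher in Nr6a1-/- cells from d2.5 to d4, and Smad7, Tbx3 and Hey1 are highest at d4G in both genotypes.

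Genes whose course was most like that of a member were found by Pearson's r of log2(CPM + 1) over the 10 group means among 9711 or 9712 genes with at least 10 CPM in a group. They were Cyp26a1 (0.98), Txnrd3 and Rasa3 (0.97 each) for Id1, Rusc1 (0.94), Tex30 (0.93) and Supt3 (0.90) for Id2, Rel, Sgpl1 and Spata6 (0.98 each) for Bmp7, Sfmbt1, Cystm1 (0.96 each) and Osbpl6 (0.95) for Msx1, and Atxn1, Col2a1 and Arhgap17 (0.94 to 0.95) for Bmp4. None of them is a member. Cyp26a1, which encodes an enzyme that degrades retinoic acid, is 1 of the NMP markers.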

How the data were processed

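RNA was measured in 30 libraries of Bruce4 mouse ESCs and their derivatives, 3 per group, with groups and replicate numbers taken from the labels. The authors deposited a table of raw counts, which are whole numbers for each gene in each library. According to the submitters' processing notes and the methods of the study, the authors primed 3' ends with an index and a molecular identifier and aligned the reads with STAR to mm10. The counting tool, annotation, use of strand and collapsing of identifiers are not given in the sources used here, so that counting intervals cover counting error only. The authors' tables per stage hold their own counts, CPM, log2 fold changes, p-values and FDR, and were not used. All 30 columns were matched by name, with 0 left over.

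A gene was kept (12149 of 54134) if 2 libraries of any group each exceeded 10 counts and 2 CPM. Kept genes were scaled by TMM factors, and fitted as 10 groups with glmQLFit and glmQLFTest (edgeR 4.0.16, limma 3.58.1, R 4.3.3; 20 residual degrees of freedom). The 17 comparisons are the genotype at 5 stages, successive stages and Gdf11 in each genotype, and 4 interactions. Tests are 2-sided, FDR (Benjamini-Hochberg) is over all genes kept, a gene was called below 0.05, and intervals are 95%. CPM values are TMM-scaled with no prior count. Labels alone make the 3 libraries of a group replicates, so that p-values measure the spread between these libraries, which may be technical. No pair of replicates was alike within sampling noise (chi-square per gene 1.44 to 6.61 over 30 pairs). Intervals on pooled counts are exact.

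The members, the pathway and marker lists and the tests were chosen with earlier results of these data known. All 10 members are named. Of the pathway list, the 3 largest rises and falls in each genotype and Gdf11 comparison were named, provided that they were called and averaged 10 CPM or more in a compared group, and for 5 members the 3 genes with the highest r. Alternatives were RLE factors, no factors, no filter, DESeq2 1.42.0, only the libraries compared, thinning to the smallest library, a replicate block and leaving out each library. The test was tried on simulated data first. Promoters are from RefSeq (GRCm38.p6). A comparison of protein sequences was not done.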

Additional observations from a re-analysis of the deposited data

Results flagged for a closer look

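The change over a step differed between Nr6a1-/- and wildtype cells, by the interaction test in edgeR, in 6 results. For Id2 the log2 difference was -1.996 from d2.5 to d3 (a fall in Nr6a1-/- cells, against a wildtype log2 change of 0.54 that did not pass), 2.36 from d3 to d4 (a steeper rise) and -0.97 for the response to Gdf11 (a steeper fall). For Id3 it was -1.65 from d3 to d4 (a rise in wildtype, against a log2 change of 0.12 in Nr6a1-/- cells that did not pass) and 0.81 for Gdf11 (a smaller fall). For Msx2 it was 2.40 for Gdf11 (a steeper rise). In the Gdf11 interactions the d4 levels set against d4G were unequal between genotypes for Id3 and Msx2 and overlapped for Id2. Rise and fall with Gdf11 mean d4G against d4, which are parallel cultures.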

How the results depend on the processing

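Of 170 results for single members, 59 were called. Of these, 38 were called under every alternative in which the member was tested and 21 were lost under at least 1. An alternative whose filter left a member out was not counted for it. The same holds for the counts of alternatives given above. For wildtype d2.5 against d2, 13 alternatives were counted for Bmp7, 12 each for Msx1 and Msx2 and 10 for Id4. Of the 111 not called, 11 were called under at least 1. None reversed. The number of members called at d2 between genotypes fell from 2 to 1 at the thinned depth, and it went from 4 to 2 for wildtype d3 against d2.5 and from 6 to 3 for the wildtype response to Gdf11 at that depth, where fewer counts are tested. The Nr6a1-/- step to d2.5 gave 2 to 4 members and the genotype difference at d2.5 gave 1 to 2 when single libraries were left out. The interaction from d2 to d2.5 went from 0 to 1, which is Id3, with DESeq2, no filter, no normalisation factors, only the libraries compared, and the replicate block (log2 difference -0.92, FDR 0.0388). Replicate numbers did not pair the libraries: the deviations of same-numbered libraries correlated at -0.115 to 0.0578 over 15 pairs, none above 0.1, and the block is therefore given as an alternative alone.

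Depth limits Bmp2, Bmp4, Id4, Msx2 and Smad6, which held from 0 to 35 counts in a library, and the thinned depth was drawn once. The Nr6a1-/- cells are 1 clone.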
